A study of Drosophila melanogaster with 6 samples.

Results

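The genes described here belong to the Wingless branch of Wnt signalling, and they were measured in wing imaginal discs of Drosophila melanogaster, the epithelial pouches of the larva from which wing blade, hinge and notum arise. Of 10 pathway genes listed, 3 had a probe set that the platform annotation pairs with exactly 1 gene, namely Wnt6, nkd and Notum, each with 1 probe set out of 18769 tested. The other 7 listed genes were not analysed here. Discs were dissected at 96 h AED in the third larval instar from the w1118 strain, used as wild type, and from kdm510424 flies, labelled as kdm5 mutant, with no treatment given for either. Each genotype was sampled by 3 biological replicates of about 60 pooled discs, with 1 Drosophila Genome 2.0 array per replicate. The labels name no tissue-specific driver, and a wild type of matched background is not among the groups, so effects of strain and of the mutation cannot be told apart. Values are the authors' normalised log2 signals, and every difference is mutant minus w1118 on that scale.

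Wnt ligands are secreted lipid-modified proteins that bind a receptor complex at the cell surface and keep beta-catenin from being destroyed in the cytoplasm, so that it can enter the nucleus and act on target genes. In the wing disc the Wingless ligand is made along the boundary of the dorsal and ventral compartments and in the notum, and it directs growth of the pouch and the bristles of the wing margin. Signalling raises several of its own inhibitors, which limits its range. Kdm5, also called lid, encodes a histone demethylase that acts on lysine 4 of histone H3.

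Of the 3 pathway genes, 2 changed in the mutant, in opposite directions. Wnt6, which encodes a secreted ligand of the Wnt family, fell by 0.26 on the log2 scale, a 1.20-fold fall. Notum, which encodes a secreted carboxylesterase that removes the lipid from Wnt ligands and so inhibits them, rose by 0.25, a 1.19-fold rise. For nkd, which encodes a feedback inhibitor inside the receiving cell, the difference was -0.011 and did not pass the test. The 2 calls among 3 probe sets stand beside 18.3% of all 18769 probe sets called in either direction by the same test (adjusted p under 0.05, limma with Benjamini-Hochberg adjustment over all probe sets). The 3 genes are brighter than the median probe set, at 4.44, and of the 9385 probe sets in that brighter range 31.9% were called. Lower calls made up 53.7% of all calls as deposited, and 34.2% and 12.8% with the arrays centred on polyadenylated and on hybridization spike-in controls.

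The mutation was visible in the targeted gene on every array. Kdm5 read 10.09, 10.15 and 9.98 in w1118 replicates 1 to 3 and 4.67, 3.70 and 4.49 in the mutant, a change of -5.79 ± 0.23 (log2 ± SE, n = 3 per genotype, adjusted p = 6.18e-06, limma). Its mutant mean was dimmer than the median probe set, so the array's background limits the size of that fold. Array medians lay between 4.42 and 4.45, and replicate arrays of a genotype correlated at 0.998 to 0.999 (Pearson r over probe sets, as a description).

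Among the ligands, Wnt6 lies on chromosome arm 2L in the same gene cluster as the gene of the Wingless ligand. Its log2 signal was 8.70, 8.66 and 8.69 in w1118 replicates 1, 2 and 3, and 8.49, 8.50 and 8.28 in the mutant. The w1118 arrays were tightly grouped (8.68 ± 0.02, SD, n = 3) and all lay above the mutant arrays (8.42 ± 0.12, SD, n = 3), of which replicate 3 was the lowest. The gap between the groups was 0.17, against a spread of 0.22 among the mutant arrays. The change was -0.26 ± 0.07 (SE, 95% interval -0.43 to -0.10, adjusted p = 0.0397, limma). Its size exceeded that of 83.7% of all probe sets, and 9.84% of all probe sets were called lower.

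The Wnt6 call sat close to the threshold. It was lost without any 1 of the 6 arrays (limma adjusted p from 0.0576 to 0.108), while the change stayed between -0.30 and -0.19. With the arrays centred on the hybridization spike-in controls it read -0.083, and with the polyadenylated spike-in controls -0.18, neither of them called (limma adjusted p = 0.457 and 0.185). The median change over all probe sets was 0.01 as deposited, 0.19 with the first centring and 0.09 with the second. Wnt6 lay below that median in each, which was fixed in advance, since a centring shifts every probe set of an array alike.

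Among the feedback inhibitors, Notum lies on chromosome arm 3L. Its log2 signal was 6.79, 6.82 and 6.90 in w1118 replicates 1, 2 and 3, and 7.21, 7.03 and 7.02 in the mutant. The groups did not overlap, and mutant replicate 1 stood above the other mutant arrays. The means were 6.84 ± 0.05 and 7.09 ± 0.11 (SD, n = 3 each), and the gap of 0.12 between the groups was smaller than the spread of 0.19 among the mutant arrays. The change was 0.25 ± 0.07 (SE, 95% interval 0.09 to 0.41, adjusted p = 0.0440, limma), larger in size than that of 82.5% of all probe sets, and 8.49% of all probe sets were called higher. Like Wnt6, Notum lost its call without any 1 of the 6 arrays (limma adjusted p from 0.0602 to 0.128), with changes from 0.19 to 0.28. It was called under both spike-in centrings, at 0.43 with the hybridization and 0.33 with the polyadenylated controls. Those centrings also raised the median change over all probe sets, from 0.01 as deposited to 0.19 and 0.09. Under the first, 6302 probe sets were called higher, against 1593 as deposited, so the larger Notum values are no added support.

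The log2 signal of nkd, which also lies on arm 3L, was 10.35, 10.46 and 10.44 in w1118 replicates 1, 2 and 3, and 10.34, 10.38 and 10.50 in the mutant. The groups overlapped fully, with the lowest and the highest of the 6 arrays both in the mutant. The change was -0.011 ± 0.062 (SE, adjusted p = 0.938, limma). Its 95% interval ran from -0.16 to 0.14, so a change within that range was not excluded. The sign of the nkd difference turned with the scaling, to 0.17 and 0.074 under the hybridization and polyadenylated spike-in centrings. Groups that do not overlap, as in Wnt6 and Notum, were seen in 36.1% of all probe sets. In RNA from whole discs, fewer cells that make a transcript and less of it per cell cannot be told apart.

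**Figure D1:**
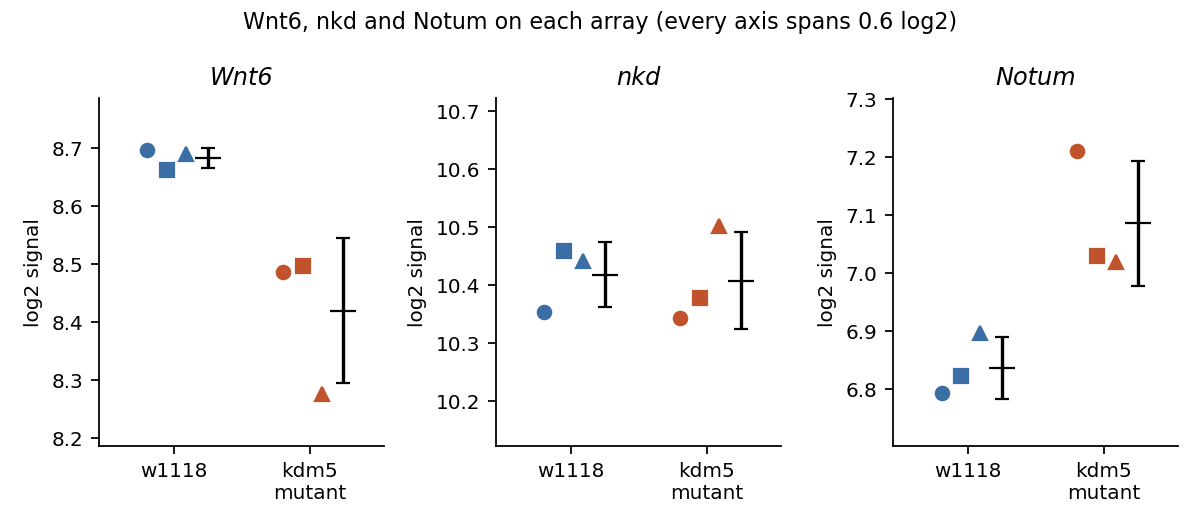
Log2 signal (vertical axes, each spanning 0.6) of Wnt6, nkd and Notum on each array, by genotype (horizontal axes). Circles, squares and triangles are replicates 1, 2 and 3, and black bars the mean ± SD of 3 arrays. The mutant arrays lie below the w1118 arrays for Wnt6, at 8.28 to 8.50, above them for Notum, at 7.02 to 7.21, and among them for nkd.

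**Figure D2:**
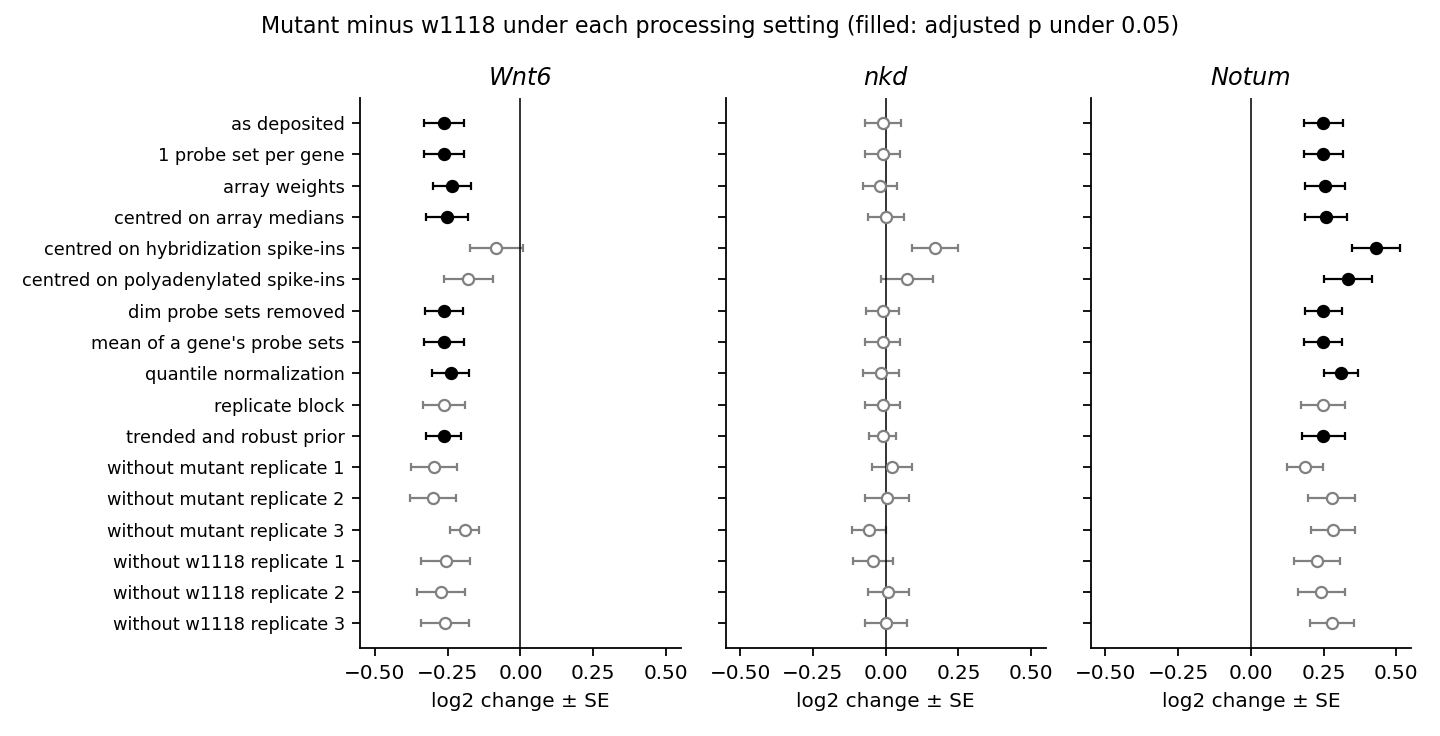
Log2 change of Wnt6, nkd and Notum, mutant minus w1118, under the main setting and 16 alternatives (rows), with the SE of limma as bars. Filled points passed an adjusted p of 0.05. Wnt6 stays below 0 and Notum above 0 in every row, while the points turn open for both without any single array, and nkd is open throughout.

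The nearest genes with a probe set of their own on either side of the called members did not pass the test. Around Wnt6 these were CG31909, with 2 genes in between, at 0.10 ± 0.09, and CG5149, with 3 genes in between, at -0.03 ± 0.05 (log2 change ± SE, adjusted p = 0.522 and 0.800, limma). CG5149 is also the nearest such gene beyond one end of the Wnt cluster, and CG13786 at the other end read -0.18 ± 0.07 (adjusted p = 0.132, limma). Around Notum they were mRpS31, which encodes a mitochondrial ribosomal protein and has 4 genes in between, at -0.14 ± 0.05, and CG42717, with 1 gene in between, at -0.02 ± 0.09 (adjusted p = 0.110 and 0.910, limma). The signals of CG31909, CG13786 and CG42717 lay below the median level in both genotypes.

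Other genes of the pathway were counted in 8 lists by role, 1 probe set per gene. Of 50 such genes outside the 10 above, 33 were measured, 5 higher and 6 lower in the mutant, or 15.2% and 18.2% (adjusted p under 0.05, limma, over all probe sets). Over all 11982 genes 9.76% were higher and 11.9% lower. Of the 33 genes all but Ror had a mean above the median level, where 31.9% of probe sets were called in either direction, and 33.3% of the 33 genes were called, which is near that background. The median change of the 33 genes was -0.07, and that of all genes 0.00. These shares are the background for the counts of each list below, and no list was tested as a set. The remaining genes of these lists, among them all 4 further Wnt ligands, were not analysed here. The largest changes were rises, in a histone acetyltransferase gene, in an enzyme that sulphates heparan sulphate and in a glypican. The brighter and dimmer probe sets of the acetyltransferase gene disagreed in sign, at 1.06 and -0.28.

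**Figure D3:**
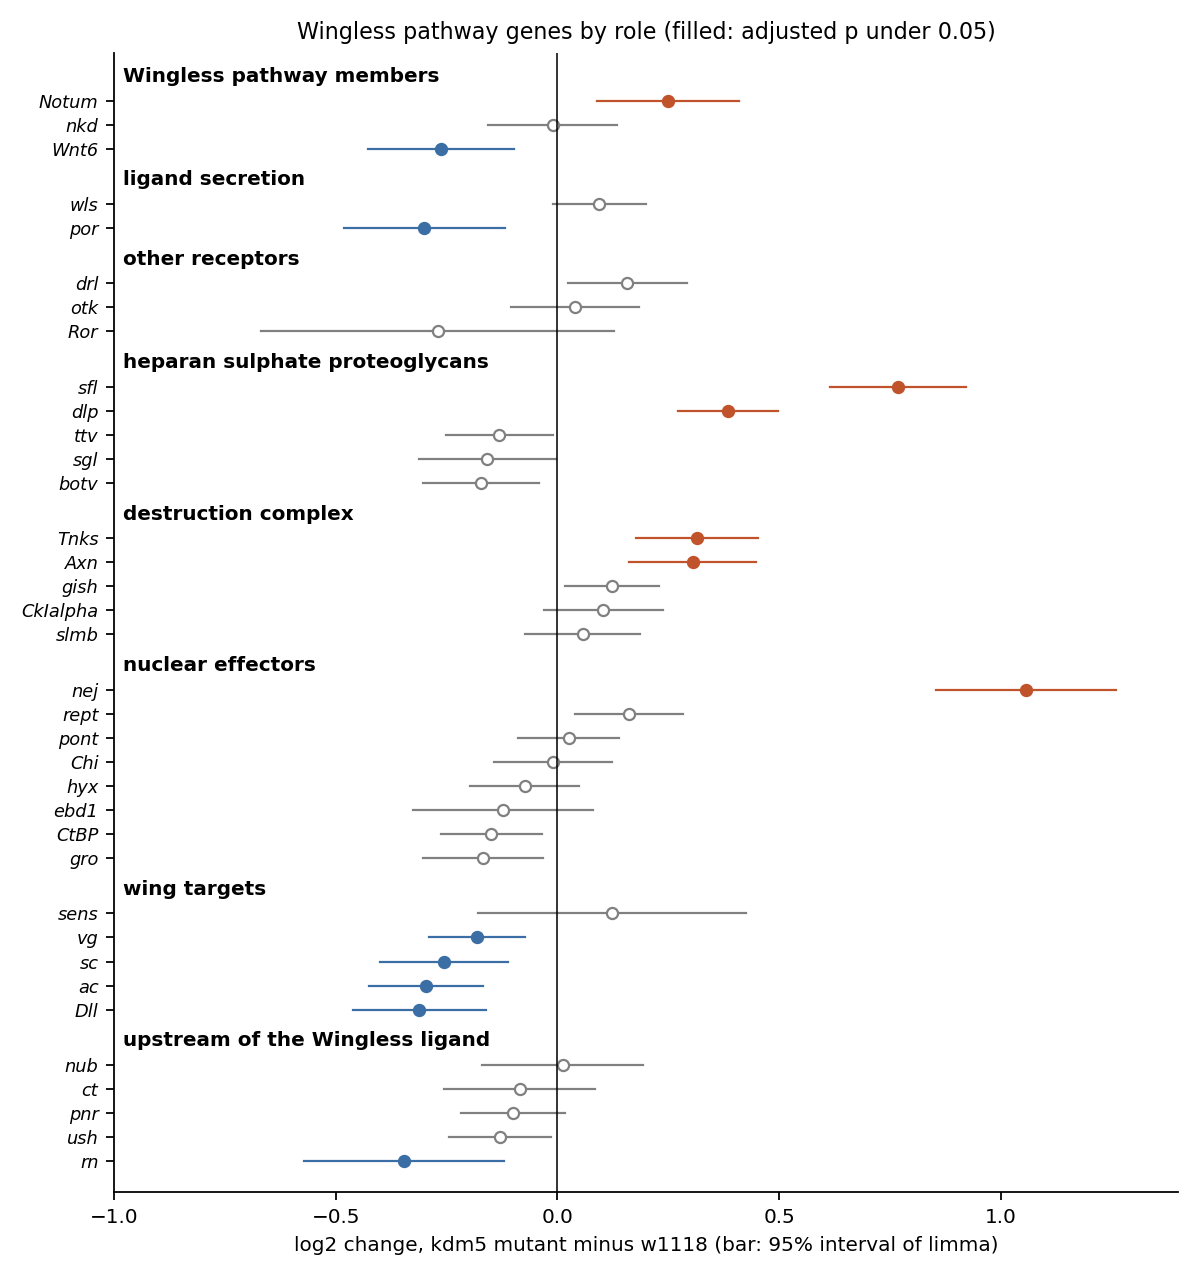
Log2 change of the pathway genes, mutant minus w1118 (horizontal axis), grouped by role, with the 95% interval of limma as bars. Filled points passed an adjusted p of 0.05, orange for higher and blue for lower. The rises of nej, sfl and dlp reach furthest from 0, and the 4 called wing targets other than Notum lie between -0.31 and -0.18. Each gene is shown by its brightest probe set, and the dimmer probe set of nej read -0.28.

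Ligand secretion was represented by 2 genes. The gene por encodes porcupine, the acyltransferase that attaches the lipid to Wnt ligands in the endoplasmic reticulum. It read 8.68, 8.56 and 8.61 in w1118 and 8.44, 8.17 and 8.35 in the mutant, so that the groups did not overlap. The fall was 0.30, and the change of -0.30 ± 0.08 passed the test (SE, adjusted p = 0.0357, limma). It did so without mutant replicate 1 but not without mutant replicates 2 or 3 or w1118 replicates 1, 2 or 3 (limma adjusted p from 0.0613 to 0.110), nor under the hybridization and polyadenylated spike-in centrings (-0.12 and -0.22). The gene wls encodes the carrier that takes Wnt ligands to the cell surface, and its change was 0.09 ± 0.04 (SE, adjusted p = 0.211, limma), with w1118 arrays at 11.32 to 11.35 and mutant arrays at 11.42 to 11.43.

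None of 3 measured receptor genes was called, and the median change was 0.04. The brightest were drl, which encodes a receptor of the Ryk family, at 0.16 ± 0.06, and otk, a receptor tyrosine kinase-like protein, at 0.04 ± 0.06 (log2 change ± SE, adjusted p = 0.107 and 0.737, limma). The third, Ror, was near the median level and read -0.27 ± 0.17.

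Glypicans are cell-surface proteins whose heparan sulphate chains hold Wnt ligands near the membrane, and the list holds a glypican and enzymes that make the chains. Of 5 measured, 2 rose and none fell, with a median of -0.13. The gene sfl encodes the N-deacetylase and N-sulphotransferase that modifies the chains. It read 7.10, 7.28 and 7.28 in w1118 and 8.01, 7.94 and 8.01 in the mutant, with a gap between the groups wider than the spread within either. It rose by 0.77 ± 0.07, a 1.70-fold rise (SE, adjusted p = 0.000232, limma). The gene dlp encodes the glypican Dally-like, which binds Wingless. It read 10.30, 10.38 and 10.33 in w1118 and 10.73, 10.70 and 10.74 in the mutant, again without overlap, and rose by 0.39 ± 0.05 (SE, adjusted p = 0.00153, limma). Both were called under all 16 alternatives, at 0.71 to 0.95 for sfl and 0.37 to 0.57 for dlp. The median of the list is negative because the 3 genes not called had negative changes. These were the chain polymerase genes ttv and botv, at -0.13 ± 0.05 and -0.17 ± 0.06, and sgl, which encodes UDP-glucose dehydrogenase, at -0.16 ± 0.07 (adjusted p from 0.0774 to 0.156, limma).

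The destruction complex holds beta-catenin for degradation when no ligand is bound. The list for this step also holds Tnks, whose product acts against the scaffold of the complex. The count and median of the list therefore do not describe the complex alone. Of 5 measured genes 2 rose, Axn and Tnks, and none fell, with a median of 0.12, the value of gish. Axn encodes Axin, the scaffold of the complex. Its signal was 9.77, 9.85 and 9.77 in w1118 and 10.05, 10.05 and 10.20 in the mutant, with all mutant arrays higher. The change was 0.30 ± 0.06 (SE, adjusted p = 0.0132, limma). Tnks encodes tankyrase, which marks Axin for degradation. Its signal was 8.76, 8.73 and 8.64 in w1118 and 8.99, 8.98 and 9.10 in the mutant, and it rose by 0.32 ± 0.06 (SE, adjusted p = 0.00942, limma). The groups of both genes were apart, and both were called under all 16 alternatives, with the highest adjusted p at 0.0496 for Axn and 0.0424 for Tnks. The kinase genes CkIalpha and gish and the ubiquitin ligase gene slmb changed by 0.10 ± 0.06, 0.12 ± 0.05 and 0.06 ± 0.05 and were not called (adjusted p from 0.112 to 0.562, limma).

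Among 8 measured genes of the nuclear step, 1 rose and none fell, with a median of -0.04. That gene was nej, which encodes the histone acetyltransferase CBP. Its brighter probe set read 8.18, 8.37 and 8.17 in w1118 and 9.26, 9.19 and 9.44 in the mutant, far apart compared with the spread of either group. The change was 1.06 ± 0.09, a 2.08-fold rise (SE, adjusted p = 0.000197, limma). The dimmer probe set of nej read -0.28 ± 0.12 and was not called (adjusted p = 0.164, limma), so the probe sets of this gene disagreed in sign, and with both averaged the change was 0.39.

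The co-repressor genes gro and CtBP read -0.17 ± 0.06 and -0.15 ± 0.05 and were not called (adjusted p = 0.0910 and 0.0779, limma), although a second, dimmer probe set of CtBP fell by 0.33 ± 0.05 (adjusted p = 0.00389, limma). The AAA ATPase genes rept and pont read 0.16 ± 0.05 and 0.03 ± 0.05, and the other 3, Chi, hyx and ebd1, lay between -0.12 and -0.01, none of these called (adjusted p from 0.0772 to 0.939, limma).

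Of the genes known to be raised by Wingless in the wing disc, 7 were measured, Notum and nkd among them, and their median change was -0.18. That median is the value of vg on its brighter probe set. The other probe set of vg read 0.04, so the median depends on which probe set stands for vg. Notum rose and 4 others fell, namely ac, sc, Dll and vg, while nkd and sens were not called. Of all genes 9.76% were called higher and 11.9% lower. All 7 targets were above the median level, where 31.9% of probe sets were called in either direction. The proneural gene ac, which starts bristle formation at the wing margin and in the notum, read 9.08, 9.11 and 8.98 in w1118 and 8.74, 8.78 and 8.77 in the mutant. Its neighbour sc, another proneural gene, read 8.85, 8.89 and 9.03 in w1118 and 8.67, 8.68 and 8.64 in the mutant. In neither gene did the groups overlap, and the changes were -0.30 ± 0.05 for ac and -0.26 ± 0.06 for sc (SE, adjusted p = 0.00915 and 0.0270, limma).

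The distal homeobox gene Dll read 10.16, 10.04 and 10.23 in w1118 and 9.84, 9.78 and 9.88 in the mutant on its brightest probe set. This was a fall on every mutant array, with a change of -0.31 ± 0.06 (SE, adjusted p = 0.0147, limma). Its 2 dimmer probe sets read -0.14 ± 0.06 and -0.36 ± 0.09, of which the second was called (adjusted p = 0.150 and 0.0375, limma). The wing selector gene vg read 11.22, 11.20 and 11.18 in w1118 and 10.99, 11.03 and 11.04 in the mutant, a change of -0.18 ± 0.05 (SE, adjusted p = 0.0347, limma). Its other probe set read 0.04 ± 0.06 (adjusted p = 0.678, limma), so for vg the sign depended on the probe set. The gene sens, which encodes a zinc finger protein of sensory organ precursors, read 6.91 to 7.31 in w1118 and 7.01 to 7.36 in the mutant, with a change of 0.12 ± 0.13.

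The 4 lower calls among targets were small and did not hold under all alternatives. Centred on either set of spike-in controls none of ac, sc, Dll and vg was called. With the hybridization controls they read -0.12, -0.076, -0.13 and -6.8e-05, beside a median over all probe sets of 0.19. That centring shifts every probe set of an array alike, so the place of these genes relative to the median did not test them. With 1 array left out, ac remained called in all 6 cases. Dll lost its call without mutant replicate 2 or w1118 replicate 1 (limma adjusted p = 0.0609 and 0.0523), sc in every case but that without w1118 replicate 1 (limma adjusted p up to 0.0803), and vg in all 6 (limma adjusted p from 0.0636 to 0.117). With the probe sets of a gene averaged, vg read -0.069 and was not called (limma adjusted p = 0.320).

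**Figure D4:**
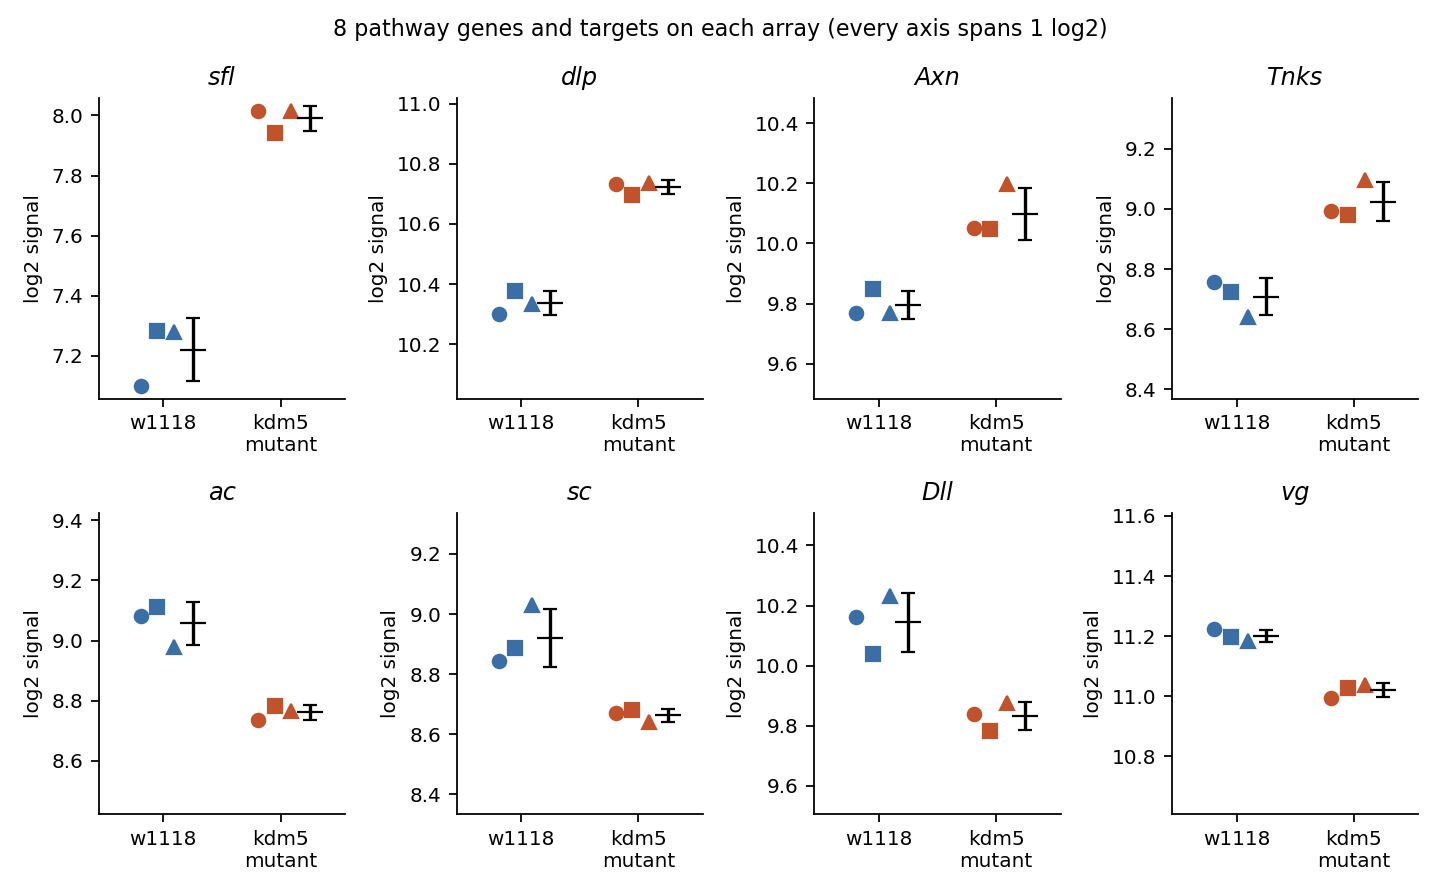
Log2 signal (vertical axes, each spanning 1) of 8 pathway genes and targets on each array, by genotype. Circles, squares and triangles are replicates 1, 2 and 3, and black bars the mean ± SD of 3 arrays. The mutant arrays lie above the w1118 arrays for sfl, dlp, Axn and Tnks and below them for ac, sc, Dll and vg, with the widest gap for sfl.

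Of 5 measured genes known to act upstream of the Wingless ligand in the disc, 1 fell and none rose, with a median of -0.10. The gene rn, which encodes a zinc finger protein of the wing pouch, read 7.03, 7.34 and 7.33 in w1118 and 6.81, 6.99 and 6.87 in the mutant. The change was -0.35 ± 0.10 (SE, adjusted p = 0.0460, limma). It was called under 6 of 16 alternatives, and with 1 array left out only without w1118 replicate 1 (limma adjusted p from 0.0657 to 0.134 in the other cases). It also lost its call with array weights and quantile normalization (limma adjusted p = 0.0698 and 0.105), and read -0.17 and -0.26 with the hybridization and polyadenylated spike-ins (0.166 and 0.0868). Its dimmer probe set, below the median level, read 0.10 ± 0.13, and the average of its probe sets read -0.12 (limma adjusted p = 0.149). The pouch gene nub read 0.01 ± 0.08 on its brightest probe set (adjusted p = 0.942, limma). Its 2 dimmer probe sets moved in opposite directions, at 0.95 ± 0.11 and -0.59 ± 0.10 (adjusted p = 0.00105 and 0.00634, limma). The GATA factor gene pnr, its co-factor gene ush and the homeobox gene ct lay between -0.13 and -0.09 and were not called (adjusted p from 0.123 to 0.501, limma).

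Defining genes of the wing disc were present on all arrays. The log2 of the summed linear signal of 7 such genes was 13.43 to 13.45 in w1118 and 13.34 to 13.49 in the mutant. In such a sum the brightest genes weigh most, here nub, vg and ap. Of the 7 genes, ptc, vg and rn were called lower. A dimmer probe set of ap rose by 0.58 ± 0.05 (log2 change ± SE, adjusted p = 0.000403, limma), while its brightest was not called. Markers of other larval tissues moved with genotype. Of all 11982 genes, 11.9% were called lower. Lower calls were made for 6 of 7 salivary gland genes, 4 of 4 fat body genes, 6 of 6 muscle genes and 3 of 7 haemocyte genes. In w1118 the log2 of their summed linear signals was 11.97 to 13.17, 9.70 to 11.09, 9.57 to 9.97 and 9.52 to 9.95. In the mutant it was 9.58 to 9.69, 7.89 to 8.17, 8.29 to 8.70 and 8.61 to 9.02. The lower haemocyte calls were PPO1, PPO2 and Hml, while eater was called higher, and the median change of that list was -0.14. Of 6 myoblast genes Ama was higher and Nplp2 lower, with a median change of 0.02. Ama was the brightest of them, at 12.22 in w1118 and 12.58 in the mutant (means), so it weighs most in the sum. Of 4 tracheal genes serp and verm were higher and Gasp lower. The log2 of the summed signal was 12.53 to 12.63 for myoblast and 12.34 to 12.45 for tracheal genes in w1118. In the mutant it was 12.83 to 12.89 and 12.84 to 12.88. No marker was at 0, since the values have a floor near 2.21, and Mlc2 of muscle alone had a mean below the median level. The part of these tissues in the changes of Wnt6, Notum and the other pathway genes was not tested.

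**Figure D5:**
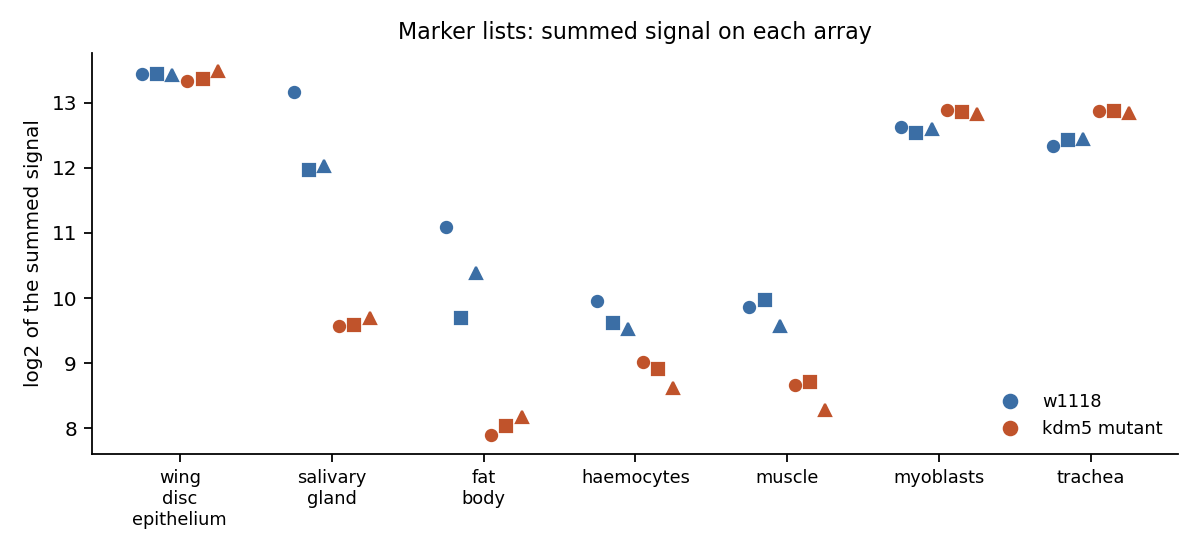
Log2 of the summed signal of each marker list (vertical axis) on each array, blue for w1118 and orange for the mutant. Circles, squares and triangles are replicates 1, 2 and 3. The sums of the wing disc list overlap between genotypes, at 13.34 to 13.49, although 3 of its 7 genes were called lower. The sums of the salivary gland, fat body, haemocyte and muscle lists are lower on all mutant arrays. Those of the myoblast and tracheal lists are higher. The brightest genes weigh most in each sum.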

How the data were processed

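RNA of wing discs was measured on 6 Affymetrix arrays, 3 per genotype, grouped by the titles in the labels. The authors deposited normalised log2 signals per probe set, and of the tools in the submitters' processing notes (GCRMA, PLIER, Affymetrix Expression Console and GCOS) it is unknown which made these values. There were no detection calls, since scanner files were not used. Of 18952 probe sets, 183 manufacturer controls were left out. The annotation gave 1 symbol for 13647 of the remaining 18769, several for 402 and none for 4720; 13544 symbols were updated by gene identifier with the gene table of RefSeq Release 6, which also gave gene order.

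All probe sets were fitted together with limma 3.58.1 (R 4.3.3, lmFit and eBayes, genotype as the only term, 4 residual degrees of freedom), two-sided, with Benjamini-Hochberg adjustment over all 18769 and a threshold of 0.05; the fit was tested on simulated data. Outside the members a gene is represented by its brightest probe set. Members and lists were chosen with earlier results of these data known. The rule named Kdm5, all members, the called pathway genes (or the 2 brightest of a list), called markers and the neighbours; pathway genes that were not called, and dimmer probe sets, were named after their values were seen. No label says whether replicates came from separate crosses, so a p-value here reflects only the spread among the samples, and the labels give no array batch. The number of arrays, 3 per genotype, limits precision. Alternatives were a replicate block, other scalings, a filter on dim probe sets, other priors and weights, other gene summaries and each array left out.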

Additional observations from a re-analysis of the deposited data

How the results depend on the processing

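Kdm5 was called under all 16 alternatives. Wnt6 kept its negative sign and Notum its positive sign under all 16, and they were called under 7 and 9. Wnt6 was not called when centred on the hybridization (-0.083, limma adjusted p = 0.457) or polyadenylated spike-ins (-0.18, 0.185). Replicate numbers were not treated as pairs in the main fit. Deviations of arrays with the same number correlated at -0.07, -0.03 and -0.18, and those with different numbers at -0.12 to 0.13. These values show no sign of pairing but cannot exclude it. With the replicate number as a block Wnt6 read -0.26 (limma adjusted p = 0.0750) and Notum 0.25 (0.102), neither called, so that 0 members were called higher and 0 lower, and of 18769 probe sets 2497 were called against 3439. Without 1 array Wnt6 ran from -0.30 to -0.19 and Notum from 0.19 to 0.28, with 0 calls for either, and nkd from -0.058 to 0.022. Either spike-in centring left 0 members called lower, and the cause was not tested. The sign of nkd turned to 0.17 and 0.074 with the hybridization and polyadenylated spike-ins, and to 0.022, 0.0044, 0.0096 and 0.0016 without mutant replicates 1 and 2 and w1118 replicates 2 and 3; it was called in none (limma adjusted p from 0.0973 to 0.994).

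Over all probe sets 1593 were called higher and 1846 lower, or 6302 and 923 with the hybridization and, of lower calls, 1029 with the polyadenylated spike-ins. Lower calls made up 53.7% of all calls as deposited, 12.8% with the hybridization and 34.2% with the polyadenylated spike-ins; these centrings shift all probe sets. Without 1 array higher calls ran from 1020 to 1281 and lower calls from 1300 to 1543. Among pathway genes not called, signs turned with the hybridization spike-ins for Chi (0.17), CtBP (0.032), botv (0.0084), ct (0.095), ebd1 (0.057), gro (0.012), hyx (0.11), pnr (0.080), sgl (0.023), ttv (0.049) and ush (0.051). With the polyadenylated spike-ins they turned for Chi (0.075) and hyx (0.011), with quantile normalization for ct (0.032) and nub (-0.0012), with array medians for Chi (0.00081), with array weights for nub (-0.019) and with averaged probe sets for ct (0.058). With 1 array left out Chi ran from -0.045 to 0.024 and nub from -0.069 to 0.064. With the replicate block sc (-0.26, limma adjusted p = 0.0703) and vg (-0.18, 0.104) lost their lower calls. Some pathway genes gained a call. With the hybridization spike-ins CkIalpha (0.28), gish (0.30), drl (0.34), rept (0.34) and wls (0.27) were called higher. Both with dim probe sets removed and with the trended and robust prior, CtBP (-0.15), gro (-0.17) and botv (-0.17) were called lower and drl (0.16), gish (0.12) and rept (0.16) higher. Dim probe sets removed added ttv (-0.13) and ush (-0.13), the prior sgl (-0.16) and wls (0.094), and averaged probe sets CtBP (-0.24).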
